A study of Mus musculus with 32 samples.

Results

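Astrocyte RNA bound to ribosomes was compared between mouse lumbar spinal cords taken 5 weeks after a fracture and cords of uninjured mice. The 6 Trap libraries of 5 weeks after fracture (3 from females, 3 from males) and the 6 Trap libraries of uninjured mice (3 from females, 3 from males) were chosen by their sample titles. They are 12 of the 32 libraries of the series, and sex was kept as a term in every comparison. All mice carried Aldh1l1-CreER, a recombinase driven by an astrocyte promoter and activated by an oestrogen-receptor ligand, together with Rpl22-HA, a ribosomal protein that carries an HA tag once the recombinase has acted. Uninjured mice carried the same alleles, and no ages are given in the labels. Fracture serves as a model of complex regional pain syndrome. An antibody to HA pulled the tagged ribosomes out of homogenised lumbar cord, which gave the Trap libraries, and homogenate before the pull-down gave the Input libraries. The other libraries used for reference were 6 Trap libraries each of 3 and 7 weeks, and 8 Input libraries, 1 for each sex and state. Whether the libraries of a group are from different animals is not said in the labels. The p-values therefore measure library-to-library spread alone, which may be technical.

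Astrocytes take up glutamate and potassium around synapses, pass ions and metabolites to each other through gap junctions, and break glucose down to lactate that neurons can use. After injury to the nervous system they can become reactive, a state marked by more of the intermediate filament protein Gfap and by acute-phase proteins such as Serpina3n and Lcn2. Secretory proteins and membrane receptors are folded in the endoplasmic reticulum, and when folding falls behind, the unfolded protein response turns on chaperone genes such as Hspa5. Glucocorticoid hormones act on astrocytes through the receptor Nr3c1 and turn on genes such as Tsc22d3, Fkbp5 and Zbtb16. In tagged-ribosome data, a level reflects both how much of a transcript the astrocytes hold and how much of it sits on ribosomes, and in bulk samples fewer cells of a type and less RNA per cell cannot be told apart.

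Total estimated counts ran from 18834798 to 22239706 in the 5 week libraries and from 17124034 to 23189228 in the uninjured ones. The identity of the pull-down was plain, since each of the 25 astrocyte markers, against 43.3% of all genes, was higher in Trap than in Input at an adjusted p under 0.05 (edgeR's quasi-likelihood test over 32 libraries). Markers of other cells were low but not at 0. Levels below are estimated counts scaled by library size (CPM) after TMM scaling. The 12 endothelial markers summed to between 9.82 and 26.6 CPM at 5 weeks and to between 7.76 and 12.5 CPM in uninjured mice. The 17 microglia markers summed to between 57.9 and 65.0 CPM at 5 weeks and to between 57.8 and 79.5 CPM in uninjured mice. Some libraries stood apart. Female 5 weeks replicate 3 had the highest endothelial sum and the lowest astrocyte marker sum of the 12 (72110 CPM, against 81307 CPM or more in each of the others). Female uninjured replicate 1 had the highest level of glucocorticoid-responsive genes, and female uninjured replicate 2 the highest Lcn2.

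No gene passed an adjusted p of 0.05 between 5 weeks and uninjured in Trap, of 15380 tested (0%, edgeR's quasi-likelihood test with Benjamini-Hochberg adjustment). The smallest adjusted p was 0.99995. Without adjustment, 425 genes (2.76%) had a p under 0.05, of which 241 (1.57%) were higher and 184 (1.20%) were lower at 5 weeks. With no differences at all, a share of about 0.05 of genes would fall under that bound, so these counts are no excess. DESeq2 called 1 gene, the predicted gene Gm5537, which was read at 0 CPM in 4 of the 6 libraries at 5 weeks and in 2 of the 6 uninjured ones, and at 13.2 to 20.5 CPM in all the other libraries of both groups. It was named after its values were seen, and its libraries at 0 and above 0 occur in both groups. The absence of calls came with fairly narrow intervals. The 95% interval of the log2 fold change had a median reach of 0.25 either way, and for 13558 genes (88.2%) it lay wholly within 1 log2 unit of 0. Smaller differences were within the spread between libraries for most genes.

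Genes that define astrocytes and their reactive state were close to the uninjured level. Gfap ran from 9462 to 11707 CPM at 5 weeks (median 10754 CPM) and from 8813 to 11941 CPM in uninjured mice (median 10884 CPM). Its log2 fold change was 0.01 ± 0.079 (SE of the fit, 6 libraries a group), with a 95% interval from -0.15 to 0.18. Aqp4, the water channel of astrocyte endfeet, had a log2 fold change of 0.01 ± 0.083. Both groups overlapped fully for these 2 genes, and both signs turned when single libraries were left out. A panel of 17 astrocyte, reactive and metabolic genes was followed in addition, and 16 of them had log2 fold changes between -0.17 (Serpina3n) and 0.02 (Hmgcs1, an enzyme of cholesterol synthesis). None of these 16 intervals reached beyond -0.46 or 0.24, and all 16 included 0.

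**Figure D1:**
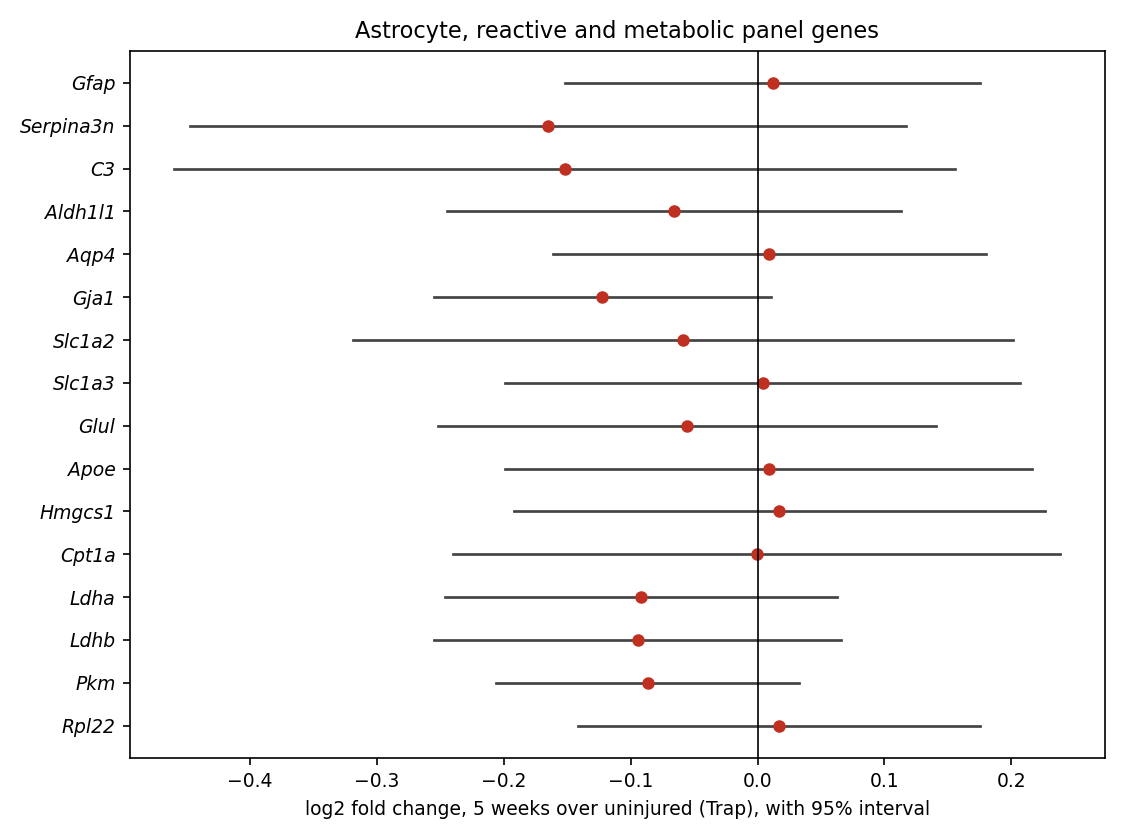
Log2 fold change of Trap levels, 5 weeks over uninjured (horizontal axis), for 16 panel genes (rows). Points are the fitted values and lines their 95% intervals, and each line crosses 0.

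Lcn2, the remaining panel gene, codes for the secreted protein lipocalin 2. It ran from 0.0457 to 0.727 CPM at 5 weeks (median 0.197 CPM) and from 0.225 to 44.5 CPM in uninjured mice (median 0.473 CPM). The high value belonged to female uninjured replicate 2 alone. The same library was the highest of the uninjured group for Timp1, an inhibitor of matrix proteases (10.1 CPM, against 1.06 to 2.52 CPM in the other 5), and for Serpina3n (197 CPM, against 89.4 to 117 CPM). Of the 18 genes listed as pan-reactive, 9 had a negative log2 fold change and none had an unadjusted p under 0.05. Cd44, a receptor for hyaluronan, had the value 0.17 ± 0.088 (0.11 without female uninjured replicate 1) and the filament gene Vim 0.18 ± 0.12 on the log2 scale, neither past the test.

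The gene with the smallest p was Rflnb, which codes for refilin B, a partner of the actin crosslinker filamin. It had 22.9 to 26.9 CPM in the 6 libraries of 5 weeks (median 24.9 CPM) and 28.0 to 40.1 CPM in the 6 uninjured libraries (median 32.9 CPM). The groups did not overlap, and the log2 fold change was -0.40 ± 0.093 (95% interval -0.60 to -0.21, unadjusted p = 0.000223, adjusted p = 0.99995 with edgeR). Females gave -0.63 ± 0.13 and males -0.18 ± 0.13. The gene lies on chromosome 11 from 76019194 to 76027782 (GRCm38, minus strand) and was 1.48 log2 units higher in Trap than in Input.

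Across all genes, the 6 values of 5 weeks lay wholly on one side of the 6 uninjured values for 25 genes (0.163% of 15380), 14 above (0.0910%) and 11 below (0.0715%). Apart from those that the rule for named genes took, these genes were named after their values were seen. Below the uninjured range, besides Rflnb, were Angptl4, a secreted inhibitor of lipoprotein lipase, Creb3, a transcription factor held in the endoplasmic reticulum membrane, and Hes1, a repressor that Notch signalling turns on. Angptl4 had 2.28 to 2.73 CPM at 5 weeks (median 2.38 CPM) and 2.88 to 4.70 CPM in uninjured mice (median 3.42 CPM), a log2 fold change of -0.55 ± 0.16. Creb3 had 26.0 to 32.9 CPM at 5 weeks (median 30.9 CPM) and 33.7 to 38.4 CPM in uninjured mice (median 35.6 CPM), a log2 fold change of -0.26 ± 0.074. For Hes1 the values were 8.62 to 11.9 CPM at 5 weeks (median 11.2 CPM) and 12.04 to 17.1 CPM in uninjured mice (median 13.2 CPM), a log2 fold change of -0.37 ± 0.13. Hes1 was 2.51 log2 units higher in Trap than in Input, and Creb3 only 0.11.

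Above the uninjured range were, among others, Smoc1, Ltbp4, Rcsd1 and Fem1c. Smoc1, a secreted calcium-binding matrix protein, had 28.7 to 36.4 CPM at 5 weeks (median 30.1 CPM) and 21.9 to 26.3 CPM in uninjured mice (median 25.04 CPM), a log2 fold change of 0.35 ± 0.10. It was 1.38 log2 units higher in Trap than in Input. Ltbp4, which stores latent TGF-beta in the matrix, had 3.50 to 5.74 CPM at 5 weeks (median 4.14 CPM) and 2.30 to 3.35 CPM in uninjured mice (median 2.80 CPM). Its log2 fold change was 0.61 ± 0.16, and the gene was 1.71 log2 units lower in Trap than in Input. Fem1c, a substrate receptor of a ubiquitin ligase, had 25.1 to 29.8 CPM at 5 weeks (median 26.7 CPM) and 21.4 to 24.1 CPM in uninjured mice (median 22.3 CPM), a log2 fold change of 0.26 ± 0.079. None of these genes passed the adjusted test.

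**Figure D2:**
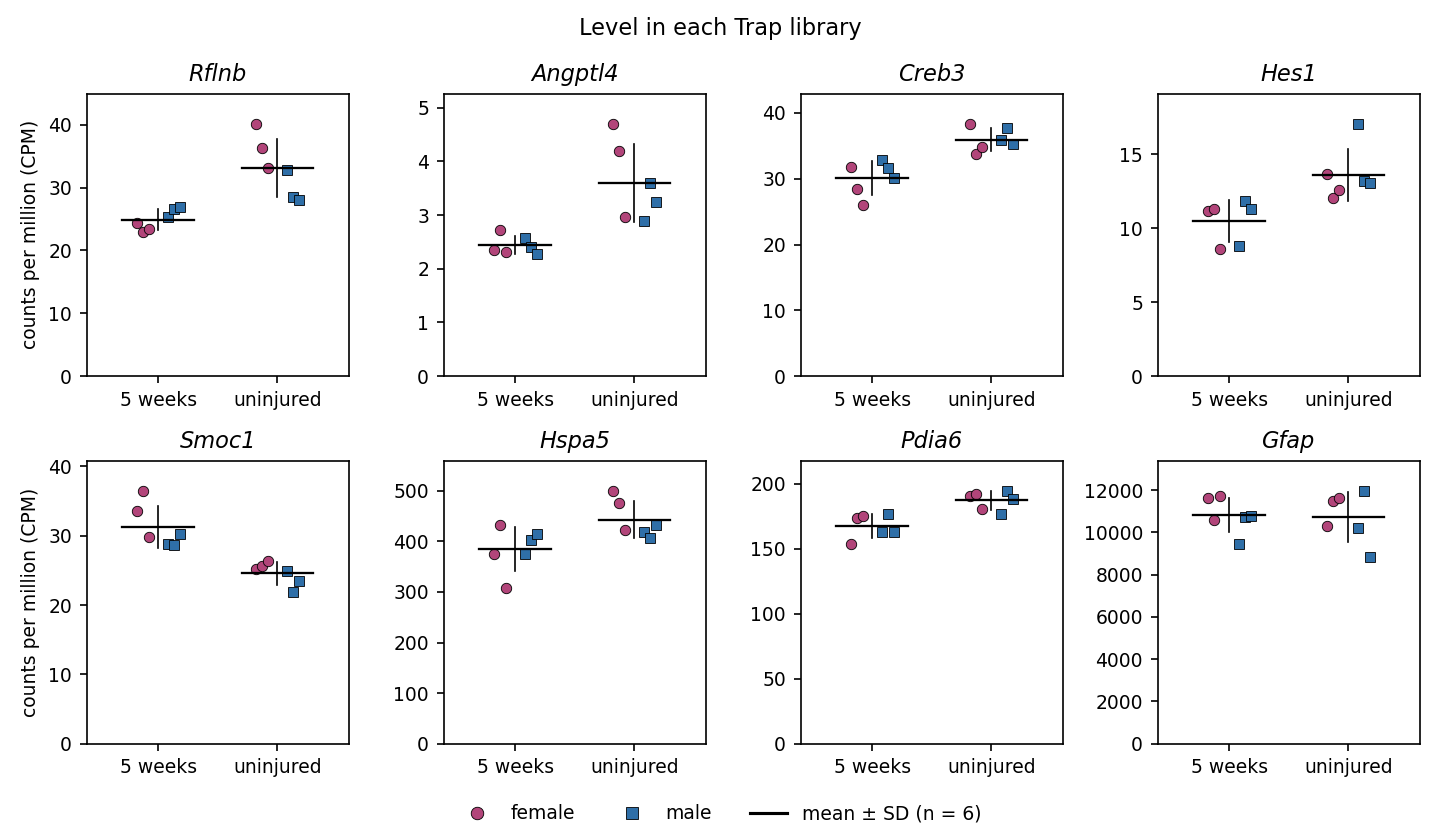
CPM (vertical axes, from 0) of 8 genes in the 6 Trap libraries of 5 weeks after fracture and the 6 of uninjured mice. Circles are females, squares males, and lines the mean ± SD. Rflnb, Angptl4, Creb3, Hes1 and Pdia6 lie below the uninjured range in all 6 libraries of 5 weeks and Smoc1 above it, while Hspa5 and Gfap overlap.

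Other genes among the 10 smallest p each way were less tidy. Slitrk6, a neuronal transmembrane protein, had the value 0.81 ± 0.22 (1.46 to 2.69 CPM at 5 weeks and 0.706 to 1.48 CPM in uninjured mice). Jag2, a Notch ligand, had 0.72 ± 0.23 and was 3.63 log2 units lower in Trap than in Input. Vitronectin (Vtn), listed here among the markers of mural and meningeal cells, had 0.66 ± 0.19 and was 2.70 log2 units lower in Trap than in Input. Its highest library was female 5 weeks replicate 3, at 5.14 CPM, with 2.62 to 3.00 CPM in the other 5 libraries of 5 weeks and 1.52 to 2.82 CPM in uninjured mice. Among genes below 0, Alx4, a homeodomain transcription factor, had -0.55 ± 0.18, Fancb of the Fanconi DNA repair complex -0.82 ± 0.24, and Alg11, an enzyme of N-glycan assembly, -0.25 ± 0.081. Mat2a, the enzyme that makes S-adenosylmethionine, had -0.37 ± 0.11 but shares all its counts with an identical unnamed entry, and Amd2 and Fam220a have near-identical copies too, so their values are uncertain.

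Chaperones of the endoplasmic reticulum lay a little below the uninjured level as a group. Of the 24 genes listed for the unfolded protein response, 23 passed the filter on low counts and 20 had a negative log2 fold change, with a median of -0.08. Over all genes tested, 7813 of 15380 (50.8%) were negative and the median was 0.00 to 2 decimals, and among the 1782 genes over 100 CPM 66.2% were negative with a median of -0.02. The mean log2 CPM of the 23 genes was 6.07 to 6.15 in the 6 libraries of 5 weeks and 6.16 to 6.29 in the 6 uninjured libraries. The groups thus did not overlap on this scale, by a narrow margin (6.152 against 6.156). It was the only list of the 35 examined without overlap, and it is singled out for that after the values were seen. The summed CPM of the same genes did overlap, at 3350 to 3977 CPM at 5 weeks and 3869 to 4293 CPM in uninjured mice. The lowest of the 5 week libraries was female replicate 3, and without it 17 of the 23 genes were negative with a median of -0.06. Without female uninjured replicate 1, the highest of its group, the count was 17 and the median -0.06 as well. Across the alternatives that kept all 23 genes, the count of negative members was between 17 and 20. In Input, which holds all cell types, 17 of the 23 were negative with a median of -0.06, where 51.3% of all genes were negative. The column of the uninjured female Input library is named like that of female uninjured replicate 1 in Trap. For this list too, Input is therefore not taken as a separate check.

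In this list 3 members had an unadjusted p under 0.05, all lower at 5 weeks, against 1.20% of all genes. Hspa5, the main chaperone of the compartment, also named BiP, had 308 to 432 CPM at 5 weeks (median 389 CPM) and 407 to 499 CPM in uninjured mice (median 428 CPM). Its log2 fold change was -0.20 ± 0.080, with -0.33 ± 0.11 in females and -0.08 ± 0.11 in males. Pdia6, a disulfide isomerase, had 153 to 176 CPM at 5 weeks (median 169 CPM) and 177 to 194 CPM in uninjured mice (median 190 CPM), a log2 fold change of -0.16 ± 0.070 that was the same in both sexes to 2 decimals. Hyou1, a large chaperone that works with Hspa5, had 46.9 to 65.1 CPM at 5 weeks (median 62.7 CPM) and 66.0 to 74.6 CPM in uninjured mice (median 67.9 CPM), a log2 fold change of -0.19 ± 0.082. The lowest value, 46.9 CPM, was that of female 5 weeks replicate 3, with 60.2 CPM or more in the other 5, and without it the log2 fold change was -0.11. Pdia6 and Hyou1 are 2 of the 11 genes (0.0715% of 15380) wholly below the uninjured range, both by narrow margins. Their highest values at 5 weeks were 176.5 and 65.1 CPM, and their lowest uninjured values 176.8 and 66.0 CPM. Creld2, a secretory-pathway protein made under folding stress, had -0.21 ± 0.11, with overlapping groups. Xbp1, a transcription factor of the response, differed in sign between the sexes, with -0.39 ± 0.11 in females and 0.17 ± 0.11 in males, a difference with an unadjusted p of 0.00184 and an adjusted p of 0.997 in edgeR's test. No member passed the adjusted test.

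Some promoters of these genes hold a known sequence element, and a few are shown because the genes lay below 0 together. The endoplasmic reticulum stress element, spelled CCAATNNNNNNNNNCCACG, was searched on both strands of the 300 bases around each gene's start (250 before and 50 after) in RefSeq promoters of GRCm38.p6. It was present in 8 of the 21 listed genes that had a promoter in that table (38.1%), against 39 of all 32851 promoters (0.119%). The genes were listed because they belong to this response, so a high share was set by that choice and does not bear on 5 weeks. All 8 of these genes had a negative log2 fold change at 5 weeks, as had 9 of the 12 tested genes without a match. The lines that follow give the 250 bases before the start of 4 of them, 5′ to 3′ on the strand of the gene, with the element in capitals. The first capital lies 65 bases before the start in Hspa5, 98 in Pdia6 and 126 in Creld2, where the element reads on the other strand. Hsp90b1, the chaperone GRP94, has a match whose first capital is at 212 and another, on the other strand, at 107. Hsp90b1 was chosen for its pair of matches after its values were seen, with a log2 fold change of -0.11 ± 0.079. A match is a description of these letters only.
Hspa5, chr2:34771840-34772089, plus strand: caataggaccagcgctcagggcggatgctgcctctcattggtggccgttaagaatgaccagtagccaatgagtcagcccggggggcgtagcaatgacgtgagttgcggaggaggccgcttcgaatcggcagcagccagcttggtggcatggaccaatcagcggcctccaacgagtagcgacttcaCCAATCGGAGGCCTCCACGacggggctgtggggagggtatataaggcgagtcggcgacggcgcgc
Pdia6, chr12:17266339-17266588, plus strand: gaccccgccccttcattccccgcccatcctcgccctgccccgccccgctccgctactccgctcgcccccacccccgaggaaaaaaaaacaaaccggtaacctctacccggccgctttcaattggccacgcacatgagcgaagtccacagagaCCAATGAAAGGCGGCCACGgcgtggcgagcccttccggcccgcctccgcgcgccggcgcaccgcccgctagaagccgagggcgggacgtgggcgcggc
Creld2, chr15:88819396-88819645, plus strand: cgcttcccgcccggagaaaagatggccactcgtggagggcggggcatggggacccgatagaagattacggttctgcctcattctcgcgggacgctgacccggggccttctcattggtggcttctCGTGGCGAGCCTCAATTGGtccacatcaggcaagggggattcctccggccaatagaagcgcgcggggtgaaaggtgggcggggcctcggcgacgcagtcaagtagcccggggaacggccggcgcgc
Hsp90b1, chr10:86705445-86705694, minus strand: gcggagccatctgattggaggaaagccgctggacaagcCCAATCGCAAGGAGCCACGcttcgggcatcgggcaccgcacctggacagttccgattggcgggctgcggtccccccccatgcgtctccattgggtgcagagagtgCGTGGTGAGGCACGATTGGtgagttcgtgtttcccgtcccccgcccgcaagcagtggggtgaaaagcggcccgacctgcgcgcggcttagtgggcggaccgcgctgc

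Genes of energy metabolism were also mostly a little below the uninjured level, with no gene called. Of 22 genes of glycolysis and lactate handling, 21 were negative with a median log2 fold change of -0.09, and none had an unadjusted p under 0.05. The count of negative members was 19 to 21 in every alternative that kept all 22 genes, the leaving out of each of the 12 libraries included. The size was less stable than the count, since the median was -0.052 without female uninjured replicate 1, and in females -0.013 without it against -0.06 with it. Hk2, a hexokinase, had 2.72 to 4.75 CPM at 5 weeks (median 3.67 CPM) and 3.99 to 7.19 CPM in uninjured mice (median 4.39 CPM), a log2 fold change of -0.36 ± 0.18 that was -0.21 without female uninjured replicate 1, the highest library. Eno1, an enolase, had 1346 to 1494 CPM at 5 weeks (median 1432 CPM) and 1381 to 1597 CPM in uninjured mice (median 1554 CPM), a log2 fold change of -0.11 ± 0.069. The lowest uninjured library was female replicate 2, and the other 5 uninjured libraries, at 1551 CPM or more, lay above all 6 of 5 weeks. Pfkfb3, which drives glycolytic flux through fructose 2,6-bisphosphate, had -0.19 ± 0.11 on the same scale, or -0.092 without female uninjured replicate 1. Pkm, the last enzyme of the pathway, had -0.09 ± 0.058, and the lactate dehydrogenase genes Ldha and Ldhb had -0.09 ± 0.075 (-0.043 without the same library) and -0.09 ± 0.078. In Input 8 of the 22 genes were negative with a median of 0.03, but Input has 1 library per sex and state and called 18 of 16803 genes (0.107%).

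In the tricarboxylic acid cycle and pyruvate entry, 24 of 28 genes were negative (median -0.06), and in fatty acid oxidation 24 of 28 (median -0.04). Across the alternatives that kept all 28 genes these counts ranged from 19 to 26 and from 19 to 24. With single libraries left out the medians ranged from -0.072 to -0.031, the smallest without female 5 weeks replicate 3, and from -0.056 to -0.020, the smallest without male uninjured replicate 2. Dlat, a subunit of pyruvate dehydrogenase, had -0.12 ± 0.074. The exceptions in fatty acid oxidation were the peroxisomal enzyme Ehhadh at 0.23 ± 0.097 (unadjusted p = 0.0245) and the acyl-CoA synthetase Acsl1 at 0.24 ± 0.12. Ehhadh had 13.4 to 19.5 CPM at 5 weeks (median 15.6 CPM) and 12.5 to 14.7 CPM in uninjured mice (median 13.5 CPM). Cpt1a, which admits fatty acids to mitochondria, had a log2 fold change of 0.00 to 2 decimals, with a 95% interval from -0.24 to 0.24. Of the 17 glycogen genes 14 were negative (median -0.05), but only 7 were without female 5 weeks replicate 3.

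**Figure D3:**
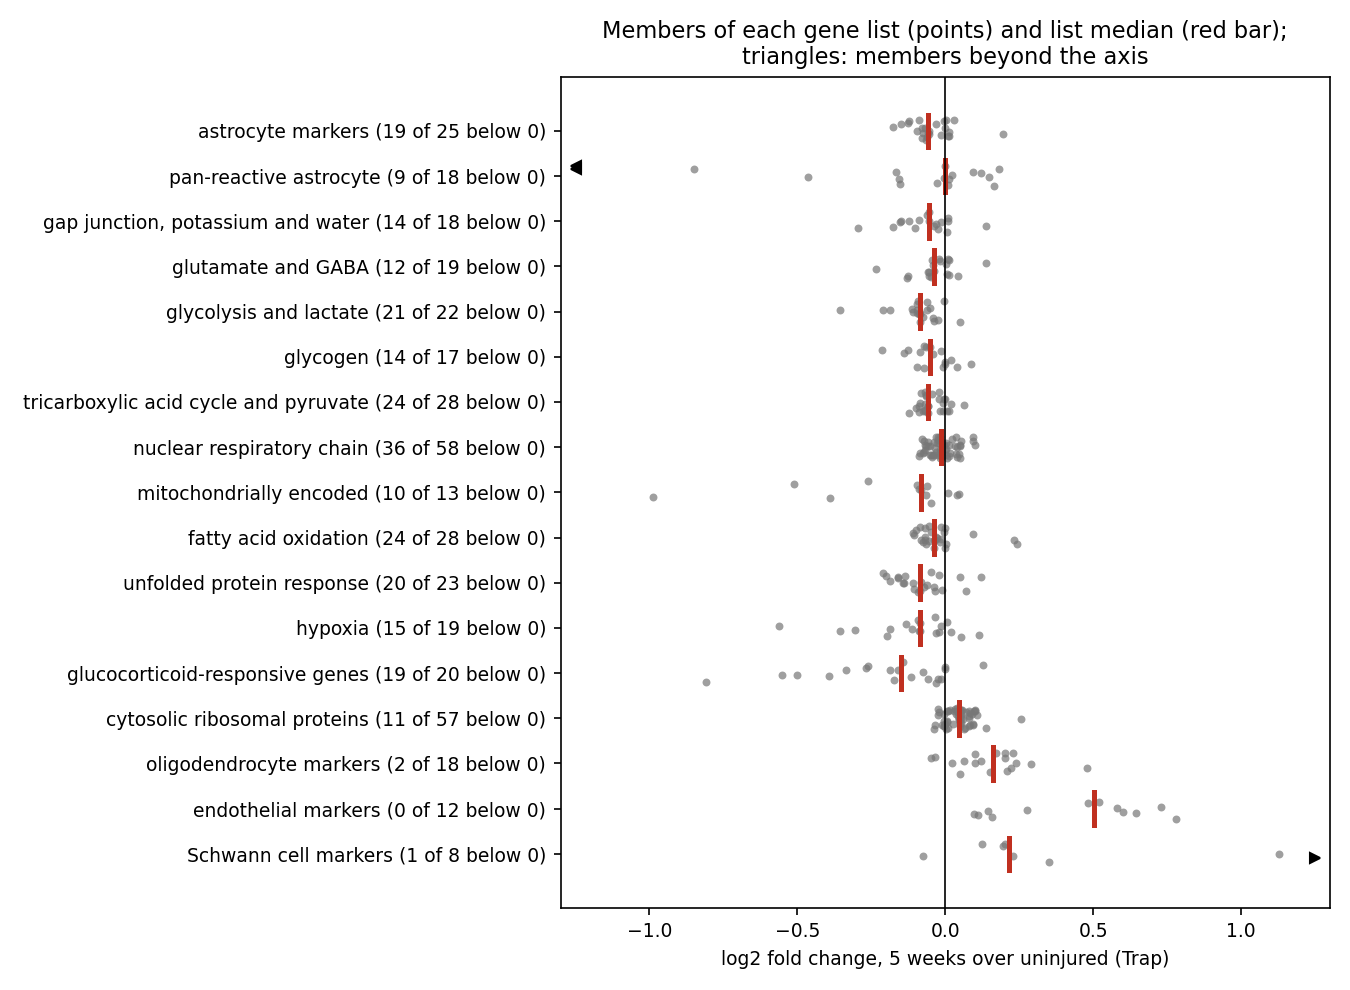
Log2 fold change in Trap, 5 weeks over uninjured (horizontal axis), of the members of 17 gene lists (rows). Grey points are genes, red bars list medians, and black triangles members near or beyond the ends of the axis. Glycolysis has 21 of 22 members and the unfolded protein response 20 of 23 members below 0, while all 12 endothelial markers lie above 0.

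Subunits of the mitochondrial respiratory chain that are coded in the nucleus moved little when the sexes were averaged, with 36 of 58 negative and a median of -0.02. Within sexes their signs differed. In females 7 of the 58 were negative (median 0.10) and in males 58 of 58 were (median -0.12), against 7683 and 7640 of all 15380 genes. The difference between the sexes was negative for all 58 genes with a median of -0.23 (males minus females), where 49.1% of all genes were negative, but no single gene had an unadjusted p under 0.05 for it. The female value rested on 1 library. The mean log2 CPM of the 58 genes was 7.25, 7.23 and 7.62 in the females of 5 weeks, against 7.34, 7.27 and 7.24 in uninjured females. Without the library at 7.62, which was female 5 weeks replicate 3, the female median was -0.03. In males the means were 7.27, 7.39 and 7.24 at 5 weeks, against 7.33, 7.498 and 7.43 in uninjured males, and the male median stayed between -0.17 and -0.08 when each library was left out. The same female library set the level of the 57 cytosolic ribosomal proteins, of which 11 were negative with it in the comparison and 39 without it.

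Genes that respond to glucocorticoids lay below the uninjured level in females, and 1 control library set much of that difference. Of the 20 listed, 19 had a negative log2 fold change (median -0.15), and the exception was the receptor gene Nr3c1 at 0.13 ± 0.10. In females 17 of 20 were negative (median -0.33) and in males 10 of 20 (median 0.01). Zbtb16, a zinc finger repressor, had 9.57 to 22.9 CPM at 5 weeks (median 17.0 CPM) and 12.8 to 62.1 CPM in uninjured mice (median 27.4 CPM), with a log2 fold change of -0.81 ± 0.28. Klf9, a transcription factor, had -0.19 ± 0.088, and Cdkn1a, a cell cycle inhibitor, had -0.39 ± 0.21. Without female uninjured replicate 1 these values were -0.092 for Klf9 and -0.23 for Cdkn1a. The top of the uninjured range was female uninjured replicate 1 for Zbtb16, Klf9, Cdkn1a and Angptl4. Tsc22d3 and Fkbp5, named after their values were seen, had 816 CPM and 262 CPM in that library, against 397 to 516 CPM and 57.1 to 128 CPM in the other 5 uninjured ones. Without it 11 of the 20 genes were negative and the median was -0.04, and in females the median was -0.05. The Input libraries, which include an uninjured female sample, had 18 of 20 genes negative with a median of -0.32. The labels do not say which Trap and Input libraries share an animal. The column of that Input sample and the column of female uninjured replicate 1 in Trap are named alike (CON-Input and CON-TRAP). Input is therefore not taken as a separate check.

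**Figure D4:**
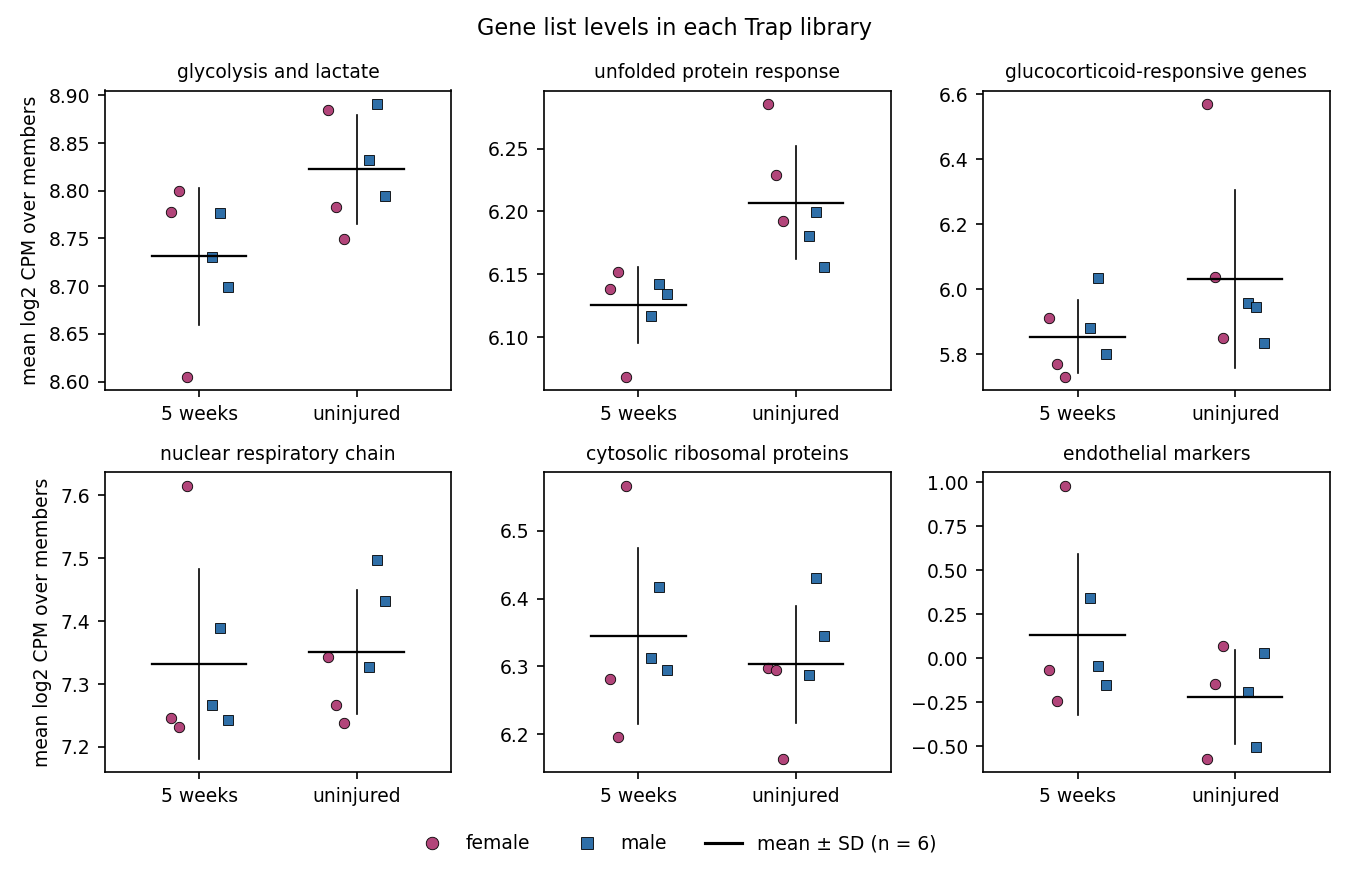
Mean log2 CPM over the members of 6 gene lists (vertical axes, not from 0) in each Trap library of 5 weeks and of uninjured mice. Circles are females, squares males, and lines the mean ± SD. The unfolded protein response values, alone among the 35 lists examined, do not overlap on this scale, by a narrow margin, and their summed CPM do overlap. On the same scale 1 female library of 5 weeks is the highest for respiratory chain, ribosomal and endothelial genes, and 1 uninjured female library is the highest for glucocorticoid-responsive genes.

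Channels and gap junction proteins that astrocytes use to spread ions and water were slightly below the uninjured level, with 14 of 18 negative (median -0.06, or -0.033 without female 5 weeks replicate 3). Aqp6, an aquaporin, had 15.1 to 22.3 CPM at 5 weeks (median 17.9 CPM) and 16.9 to 27.5 CPM in uninjured mice (median 22.3 CPM), a log2 fold change of -0.30 ± 0.10. Gjb6 (connexin 30) had 770 to 943 CPM at 5 weeks (median 880 CPM) and 816 to 1208 CPM in uninjured mice (median 968 CPM), a log2 fold change of -0.18 ± 0.079 that was -0.085 without female uninjured replicate 1. For Gja1 (connexin 43) the log2 fold change was -0.12 ± 0.064, or -0.073 without female 5 weeks replicate 3, and the groups overlapped for all 3 genes. Of the 25 astrocyte markers 19 were negative (median -0.06), but without female 5 weeks replicate 3 the count was 13 and the median -0.0068. Slc25a18, a mitochondrial glutamate carrier, had 604 to 725 CPM at 5 weeks (median 682 CPM) and 710 to 771 CPM in uninjured mice (median 736 CPM), a log2 fold change of -0.13 ± 0.060. Fjx1, a secreted kinase relative, had 0.20 ± 0.10 in the other direction.

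Markers of other cells leaned to both sides. Microglia markers were negative in 11 of 17 cases (median -0.10), neuron markers in 11 of 20 (median -0.003) and blood cell genes in 5 of 9. Mural and meningeal markers were positive in 9 of 13 cases, oligodendrocyte precursor markers in 7 of 10, Schwann cell markers in 7 of 8 and ependymal markers in 4 of 5. All 12 endothelial markers that passed the filter were positive with a median log2 fold change of 0.50, and none of them was higher in Trap than in Input. Without female 5 weeks replicate 3 the median was 0.13, with 4 of the 12 negative. Flt1, a receptor for vascular endothelial growth factor, had 1.5 to 5.24 CPM at 5 weeks (median 1.84 CPM) and 0.989 to 2.51 CPM in uninjured mice (median 1.36 CPM), a log2 fold change of 0.73 ± 0.33 that was 0.35 without that library. Slco1a4, a transporter of the blood-brain barrier, had 3.68 CPM in that library, 1.13 to 1.58 CPM in the other 5 of 5 weeks and 0.576 to 1.44 CPM in uninjured mice, a log2 fold change of 0.78 ± 0.36 that was 0.49 without that library. Oligodendrocyte markers were positive in 16 of 18 cases (median 0.16), but without male uninjured replicate 3 the median was 0.022 and 7 of 18 were negative. Their sums ran from 5510 to 7291 CPM at 5 weeks and from 4473 to 7371 CPM in uninjured mice. With a covariate for the level of other cells' markers against astrocyte markers, 19 of 22 glycolysis genes were negative with a median of -0.054. So were 20 of 23 unfolded protein response genes, with a median of -0.057, and 8 of 17 glycogen genes. Astrocyte markers were negative in 12 of 25 cases, but they are part of the covariate, so that count is no check on them.

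Within each sex no gene passed the adjusted test either. In females 595 genes (3.87%) and in males 338 (2.20%) had an unadjusted p under 0.05. Rflnb and Zbtb16 (-1.52 ± 0.39 in females, -0.09 ± 0.39 in males) were among the smallest p of females, with Aldh1b1, a mitochondrial aldehyde dehydrogenase, at 0.81 ± 0.20 and Cirbp, a cold-inducible RNA-binding protein, at 0.56 ± 0.15 (0.37 without female 5 weeks replicate 3). The female value of Zbtb16 includes female uninjured replicate 1, the highest uninjured library for that gene, at 62.1 CPM. The difference between the sexes was called for 0 genes (0%), and 466 (3.03%) had an unadjusted p under 0.05. Itpka, an inositol trisphosphate kinase, had the smallest p for that difference (unadjusted p = 0.000316, adjusted p = 0.997 with edgeR). In females it had 2.15, 2.68 and 2.17 CPM at 5 weeks, against 1.08, 1.31 and 1.58 CPM in uninjured mice. In males it had 0.939, 1.43 and 1.05 CPM at 5 weeks, against 2.41, 1.93 and 1.91 CPM in uninjured mice. Each sex thus had separate groups, in opposite directions. Since Itpka was picked by its p for this difference, the separation is part of that choice and not a further result. Synpo2, an actin-binding protein, had -0.43 ± 0.13 in females and 0.30 ± 0.14 in males.

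Against the other times, 5 weeks differed from 3 weeks in 2 genes (0.0130% of 15380) and from 7 weeks in none (0%, with 356 genes or 2.31% at an unadjusted p under 0.05). Nnat, which codes for neuronatin, a small membrane protein, had 273 to 366 CPM at 5 weeks (median 317 CPM) and 380 to 534 CPM at 3 weeks (median 431 CPM). It fell by 0.50 on the log2 scale (SE 0.076, adjusted p = 0.0141 with edgeR), and no library of 5 weeks reached the lowest of 3 weeks. Tmem176a, a membrane protein of intracellular vesicles, had 86.1 to 102 CPM at 5 weeks (median 88.4 CPM) and 115 to 151 CPM at 3 weeks (median 124 CPM), and fell by 0.50 (SE 0.086, adjusted p = 0.0378 with edgeR). It was named after its values were seen. Leaving out single libraries of 5 weeks or of uninjured mice gave between 0 and 3 called genes. Of those 12 fits, Nnat was called in 8 and Tmem176a in 2. With each of the 6 libraries of 3 weeks left out, Nnat was called in 2 fits and Tmem176a in 1. Against uninjured mice neither gene was called at 5 weeks, with log2 fold changes of -0.00 ± 0.077 for Nnat and -0.09 ± 0.086 for Tmem176a.

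**Figure D5:**
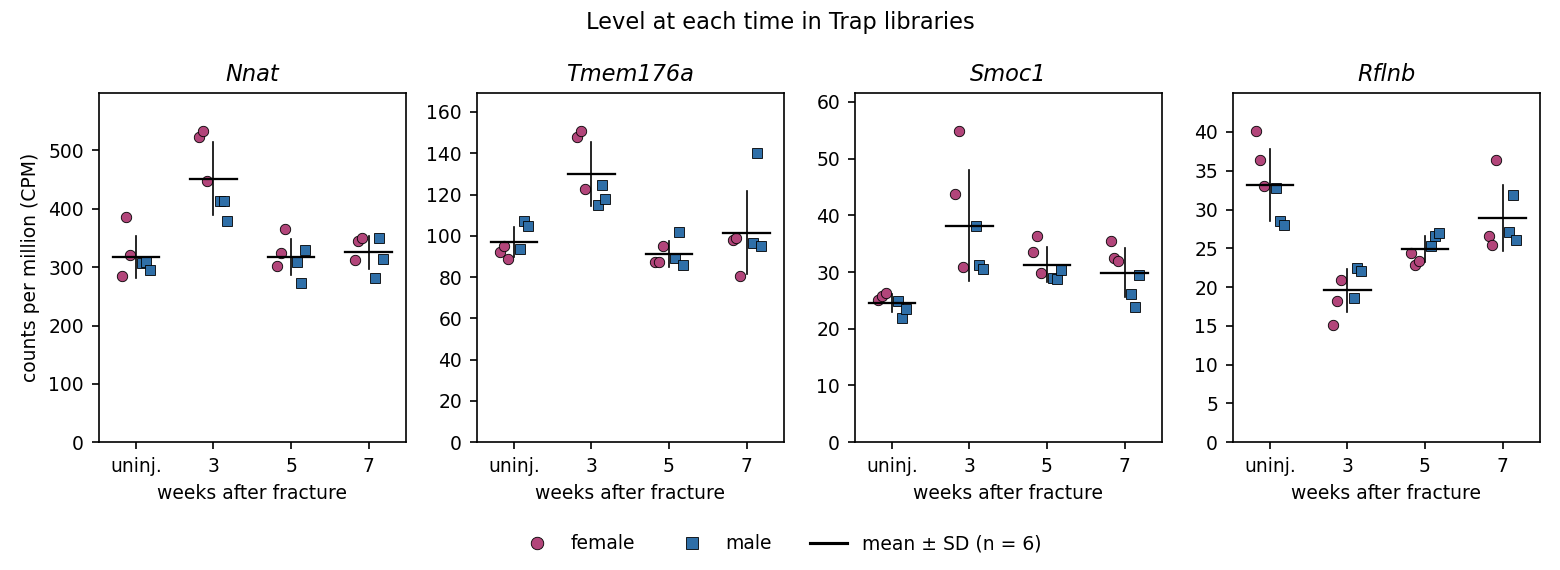
CPM (vertical axes, from 0) of 4 genes in Trap libraries of uninjured mice and of mice 3, 5 and 7 weeks after fracture (horizontal axis). Circles are females, squares males, and lines the mean ± SD. Nnat and Tmem176a are highest on average at 3 weeks and overlap uninjured mice at 5 weeks, while Smoc1 and Rflnb lie between their 3 week and uninjured levels.

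At 3 weeks 17 genes (0.111%) were called against uninjured mice and at 7 weeks none (0%). Values at the 3 times are given side by side, since the comparisons share the uninjured libraries. Rflnb had log2 fold changes of -0.75 at 3, -0.40 at 5 and -0.19 at 7 weeks. Smoc1 had 0.62, 0.35 and 0.28 at the same times, and Aqp6 had -0.73, -0.30 and -0.16. Gja1 had -0.33, -0.12 and -0.03. Angptl4 had -0.23 at 3, -0.55 at 5 and -0.61 at 7 weeks. Creb3 had -0.15, -0.26 and -0.05, and Hes1 0.14, -0.37 and -0.17. Angptl4, Creb3 and Hes1 were picked by their 5 week values, which favours a larger value at 5 weeks. None of the genes in these comparisons of times was called between 5 and 3 weeks or between 5 and 7 weeks. Among the lists, the 57 cytosolic ribosomal proteins were all lower at 5 than at 3 weeks (0 of 57 positive, median -0.16, where 50.3% of all genes were positive), and 2 of them were lower at an unadjusted p under 0.05, against 2.89% of all genes. All 57 were lower at 5 than at 7 weeks as well (median -0.13), as were all 58 nuclear respiratory chain genes (median -0.07), where 8027 of all 15380 genes were lower. Against uninjured mice 0 of the 57 ribosomal genes were negative at 3 weeks and 0 at 7 weeks. The lists were not refitted between these times with libraries left out, and the ribosomal level at 5 weeks turned on 1 female library.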

How the data were processed

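Ribosome-bound RNA and homogenate RNA of mouse lumbar spinal cord were sequenced as poly-A libraries, per the labels' protocols. The authors deposited 1 table of estimated counts per gene (expected counts) for 32 libraries. The submitters' processing notes name FastQC, Trim Galore, STAR, RSEM and the genome build GRCm38, with versions not given in the sources used here. Of 55938 genes in the table, 55141 have a symbol, and genes with none hold 0.301% of the counts. Between 6.21% and 8.53% of values were not whole, and all were rounded here.

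The gene lists and the genes followed were chosen with earlier results of these data known. edgeR 4.0.16 in R 4.3.3 was used with filterByExpr, TMM scaling and a robust quasi-likelihood fit of the 24 Trap libraries with a mean per sex and state (16 residual degrees of freedom). The 5 week effect is the average over the sexes. Genes were called at a Benjamini-Hochberg adjusted p under 0.05 among the 15380 tested. In a library of median size 1 CPM is 20.7 counts. Trap was set against Input in all 32 libraries, and Input at 5 weeks, with 1 library per sex and state, left 3 residual degrees of freedom. The method was tested on simulated data. No 2 libraries agreed within sampling noise. Same-numbered libraries of 5 weeks and uninjured mice had deviations correlated at 0.033, 0.030 and 0.086 in females and 0.21, 0.13 and 0.058 in males, so they were not treated as pairs.

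Genes named were, among those with a mean of at least 1 CPM and a gene symbol that is not a predicted model, the 10 smallest p each way at 5 weeks, up to 5 each way within each sex and for the difference between sexes, up to 4 members of each list, the genes called at 3 weeks and a panel of 17. Alternatives were DESeq2 1.42.0 and its size factors, no filter, only the 12 libraries, replicate number as a block, only genes higher in Trap than Input, a covariate for other cells' markers, and leaving out each library. Leaving out the 3 libraries highest on the first principal component, leaving out the 2 with high endothelial or Schwann cell markers, and leaving out Input and 3 week libraries were added after seeing the data.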

Additional observations from a re-analysis of the deposited data

Results flagged for a closer look

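In 30 of 182 groups of 6 libraries examined, 1 library lay farther from the others than Dixon's 95% critical value allows. For a single group of unselected values chance gives this about 1 time in 20. The groups here share libraries and some genes, and Tsc22d3 and Fkbp5 were added after their values were seen. The share is therefore a description and not a test of excess. Of these 30 values, 13 belong to female 5 weeks replicate 3. That library was the lowest of its group for the chaperone gene Hyou1 (46.9 CPM, with 60.2 to 65.1 CPM in the other 5) and for the glycolytic regulator Pfkfb3 (126 CPM, with 160 to 179 CPM in the others). It was the highest for Slco1a4 (3.68 CPM) and Vtn (5.14 CPM), genes of vessels and meninges. Its summed markers were the lowest for astrocytes (72110 CPM) and the highest for endothelial cells (26.6 CPM) and ependymal cells (45.1 CPM). Its sums were also the lowest for lipid synthesis (14488 CPM), glutamate and GABA handling (27984 CPM), gap junction, potassium and water channels (34586 CPM), the unfolded protein response (3350 CPM) and synapse and axon guidance factors (30804 CPM). The sum for glutathione and oxidative stress was the highest of its group, at 6252 CPM.

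Female uninjured replicate 1 held 6 of the values, all highest of the uninjured group. They were Fkbp5 (262 CPM), Tsc22d3 (816 CPM) and the hexokinase Hk2 (7.19 CPM, with 3.99 to 4.87 CPM in the other 5), and the sums for glucocorticoid-responsive genes (6088 CPM), heat shock proteins and chaperones (4339 CPM), and glutamate and GABA handling (40008 CPM). Another 6 values belong to female uninjured replicate 2. It was the highest for Lcn2 (44.5 CPM), Serpina3n (197 CPM), Timp1 (10.1 CPM), Nnat (387 CPM) and the microglia marker sum (79.5 CPM), and the lowest for Eno1 (1381 CPM).

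Male 5 weeks replicate 1 was the lowest of its group for Vim (86.6 CPM), the immediate early genes (101 CPM summed) and the autophagy genes (5028 CPM summed). Female 5 weeks replicate 2 was the highest for Lcn2 at 0.727 CPM, and male uninjured replicate 1 was the highest for Hes1 at 17.1 CPM.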

How the results depend on the processing

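The number of genes called at 5 weeks was 0 under every edgeR alternative run, and DESeq2 called 1 gene, Gm5537, at 5 weeks, 1 in males and 1 for the difference between the sexes. Without adjustment, 425 genes had a p under 0.05, 170 among genes higher in Trap than Input and 769 with the 3 libraries of highest first principal component left out, and 321 to 598 when single libraries were left out. With the replicate block, over both sexes or within each, the count at 5 weeks was 0 and in females 1 gene was called (Lcn2, which rests on 1 uninjured library). Within each sex, Trap columns of one replicate number mostly share a prefix in the table's column names, also across states. What the prefix marks is not given in the sources used here, and same-numbered deviations were not correlated over 0.1 in every pair, so the numbers were not taken to pair the libraries.

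Against 3 weeks, the 2 calls became 19 with DESeq2, 5 with the replicate block, 7 with the replicate block within sex and 53 without the 3 libraries, and 0 to 3 with single libraries left out. Against 7 weeks DESeq2 called 2 genes. For 3 weeks against uninjured, 17 calls became 34 with no filter, 135 with DESeq2, 44 with the replicate block, 77 with the replicate block within sex, 34 among genes higher in Trap than Input, 49 with the covariate for other cells and 222 without the 3 libraries, and 3 to 35 with single libraries left out. In Input 18 calls became 7 to 49. The causes were not tested.

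Signs turned for genes near 0. Cpt1a had 0.0022 with DESeq2's size factors, 0.0029 with no filter, 0.0020 with DESeq2, 0.0030 with the 12 libraries alone, 0.061 with the covariate, 0.083 without the 3 libraries and 0.087 without the 2 libraries with high endothelial or Schwann cell markers. Nnat against uninjured had 0.0012, 0.0016, 0.0011 and 0.0019 under the first 4 of these, 0.00055 with the replicate block, 0.0056 with the replicate block within sex and 0.0061 with the covariate. Gfap had -0.015 without the 2 libraries. With single libraries left out, Cpt1a ranged from -0.055 to 0.082, Nnat from -0.045 to 0.065, Gfap from -0.033 to 0.075, Aqp4 from -0.019 to 0.056 and Serpina3n from -0.25 to 0.046, all on the log2 scale. Of the values of named genes under alternatives, 1297 kept their sign and side of the threshold, 35 turned sign and 24 were no longer called. DESeq2's size factors moved the median log2 fold change of all genes to 0.0016, from -0.0018 with TMM.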

Other observations

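Averaged over the sexes, genes enriched in astrocytes and genes depleted by the pull-down leaned to opposite sides at 5 weeks. Of the 7391 genes higher in Trap than in Input, 4169 (56.4%) had a negative log2 fold change, and of the 6001 genes lower in Trap than in Input, 2638 (44.0%) did. The lean was mostly that of males, where 4239 of the 7391 and 2470 of the 6001 were negative. In females these counts were 3755 and 2881. The medians were within 0.1 log2 units of 0 in both sets, and the part of RNA from other cells in this was not tested.

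Several other lists were examined in the same comparison. Core clock genes were negative in 7 of 18 cases (median 0.01), cholesterol synthesis and transport genes in 15 of 26, interferon and antigen presentation genes in 14 of 22 (median -0.04, from -0.11 to 0.052 with single libraries left out) and neuron markers in 11 of 20. Among autophagy genes 17 of 20 were negative, with a median of -0.03 (from -0.044 to -0.013 with single libraries left out). Genes of hypoxia were negative in 15 of 19 cases (median -0.09, or -0.043 without female uninjured replicate 1), among them P4ha1, a subunit of collagen prolyl hydroxylase. It had 128 to 168 CPM at 5 weeks (median 162 CPM) and 162 to 206 CPM in uninjured mice (median 174 CPM), with a log2 fold change of -0.20 ± 0.074.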
